A study of Drosophila melanogaster with 6 samples.

Results

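The genes of the mitochondrial genome were examined in poly(A) RNA from Drosophila melanogaster ovaries, in 3 mutant and 3 control libraries. The members were all genes that the count tables place on the mitochondrial genome, each with a symbol that starts with mt:. They number 37 of the 17559 genes listed: 13 protein-coding, 2 rRNA and 22 tRNA genes. The mutant females were RanBP9D1 over BSC469, an allele of RanBP9 opposite a chromosomal deficiency, and the control females were w1118 over BSC469, with the chromosome of a standard laboratory strain opposite that same chromosome. RanBP9 is now called Ipo9 and encodes Importin-9, through which actin enters the nucleus, and the series asks what less nuclear actin does to transcription. All flies were kept at 25 °C. The deficiency is thus shared by all 6 libraries. The labels give neither the age of the flies, nor the number of females per library, nor whether replicates came from separate dissections, so p-values measure only the spread between these libraries. The labels also do not say which parent passed on which chromosome. Mitochondrial DNA comes from the mother, so differences of the mitochondrial genome itself between the genotypes cannot be told apart from the mutation.

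The animal mitochondrial genome is a small circle that encodes core subunits of the respiratory chain together with the rRNAs and tRNAs needed to translate them inside the organelle. It is transcribed by its own RNA polymerase, not by the nuclear polymerases, into long precursors from both strands. The precursors are cut mainly at tRNAs that lie between the other genes, and most of the mRNAs released carry short poly(A) tails. Ovaries are rich in mitochondria, which nurse cells supply to the growing oocyte. Each class is therefore followed here as a readout of transcripts made outside the nucleus, beside the nuclear mRNAs of the same libraries.

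The libraries held 25700339, 21899204 and 22126162 counted reads in mutant replicates 1, 2 and 3, and 26483578, 21583524 and 23815658 in control replicates 1, 2 and 3. Ipo9 had 2513, 1980 and 2062 counts in the mutant libraries and 3128, 3375 and 2733 in the control libraries, with a log2 fold change of −0.47 (SE 0.12, edgeR adjusted p = 0.0544). The labels do not describe the lesion of the D1 allele, so this level does not check the labels by itself. The ovary was recognised by its germline markers: vas, osk, grk, bam and orb were present in every library, with summed levels of 2730 to 2930 CPM in mutants and 2662 to 2889 CPM in controls. Here CPM stands for counts per 1000000 counted reads, with the TMM factors of edgeR. Of the 5 testis markers, Mst84Db, dj and ProtA were listed at 0 in all 6 libraries. The marker can had counts only in control replicate 2 (0.092 CPM), and betaTub85D stood at 0.230 to 0.860 CPM over the libraries. Mutant replicate 3 stood apart from the other libraries in mitochondrial mRNAs. The median log2 fold change of the mitochondrial genes and their summed mRNA level are given with and without it. Fold changes of single mitochondrial genes use all 6 libraries unless another setting is named.

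The mitochondrial genome took a similar share of the counts in mutant and control ovaries. It held 3.90%, 4.10% and 3.85% of all counts in mutant replicates 1 to 3, against 3.94%, 4.10% and 4.72% in control replicates 1 to 3. The groups overlapped, and control replicate 3 was the highest of the 6. In the fit over all genes, 0 of the 14 mitochondrial genes with enough counts to test passed an adjusted p of 0.05, where 14.5% of the 8110 genes tested did (quasi-likelihood test of edgeR, Benjamini-Hochberg adjusted p, higher and lower together). None of the 14 had an unadjusted p under 0.05 in that test. DESeq2 and limma-voom also called 0 of them, with 2 and 0 at an unadjusted p under 0.05. In none of the 14 were the mutant libraries all above or all below the control libraries, where 34.9% of all genes tested had such separate groups. The other 23 members, 22 tRNA genes and mt:ATPase8, had too few counts for the fit.

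Every fitted value was below 0 but small. The log2 fold changes, mutant over control, ran from −0.31 to −0.03 with a median of −0.16 over the 14 genes, against a median of 0.00 over all 8110. The standard errors ran from 0.07 to 0.26, and the 95% intervals of all 14 included 0. These genes share their libraries, and the common sign was lost without mutant replicate 3, where 10 of the 14 were below 0 with a median of −0.04, and without control replicate 3, where 12 were below 0 with a median of −0.13. Without mutant replicate 2 the median was −0.25, and 0 of the 14 were called when each of these 3 libraries was left out. In whole ovaries, counts cannot tell fewer mitochondria, or fewer cells of a type, from less RNA per mitochondrion.

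**Figure D1:**
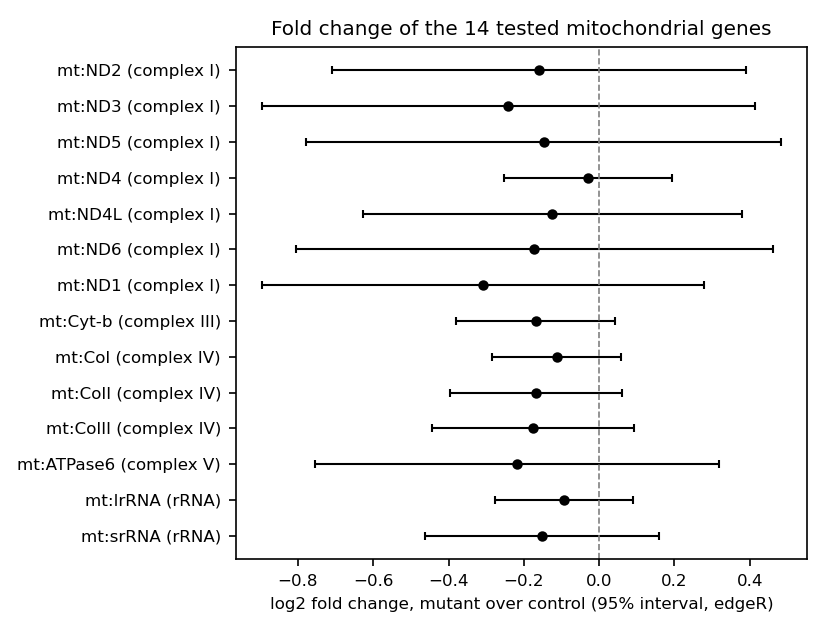
Log2 fold change, mutant over control, of the 14 tested mitochondrial genes, grouped by the complex each belongs to, with rRNAs at the bottom. Points are edgeR estimates and bars 95% intervals. All points lie between −0.31 and −0.03, and every interval includes 0.

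The 2 rRNA genes lie on the minus strand with a valine tRNA gene between them. The large-subunit rRNA gene mt:lrRNA (FBgn0013686, 12734 to 14058 in the mitochondrial numbering of the count tables) had the highest count of any gene in each of the 6 libraries. It stood at 28314, 29352 and 28820 CPM in mutant replicates 1 to 3, and at 28240, 28829 and 35267 CPM in control replicates 1 to 3. Control replicate 3 was high, and the other 5 libraries lay close together. The means were 28829 ± 519 CPM in mutant and 30779 ± 3898 CPM in control ovaries (SD, n = 3 each), a log2 fold change of −0.09 (SE 0.08, 95% interval −0.28 to 0.09, edgeR adjusted p = 0.489).

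The small-subunit rRNA gene mt:srRNA (FBgn0013688, 14131 to 14916, minus strand) was a rare transcript in these libraries. It stood at 12.7, 13.1 and 11.5 CPM in mutant replicates 1 to 3 and at 10.9, 14.6 and 16.1 CPM in control replicates 1 to 3, and the groups overlapped. Its log2 fold change was −0.15 (SE 0.14, 95% interval −0.46 to 0.16, edgeR adjusted p = 0.514). Both rRNAs are needed in equal amounts in a mitochondrial ribosome. Per kilobase of gene, however, the count of mt:lrRNA was 1322, 1333 and 1485 times that of mt:srRNA in the mutant libraries and 1541, 1173 and 1300 times in the control libraries. The ranges of that ratio overlapped between the genotypes. Poly(A) binding beads were used to prepare all 6 libraries, so the counts describe RNA captured by a poly(A) tail and not the amounts of the 2 rRNAs.

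Summed over both genes, the rRNAs came to 28841 ± 519 CPM in mutant and 30793 ± 3900 CPM in control ovaries (SD, n = 3 each), a log2 ratio of the means of −0.09. An exact two-sided permutation test over the libraries gave p = 0.8, where 3 libraries against 3 cannot give less than 0.1. This sum followed control replicate 3: without that library, the log2 ratio was 0.01.

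The 13 protein-coding genes encode 7 subunits of complex I, 1 of complex III, 3 of complex IV and 2 of complex V. Their summed level was 10828, 11924 and 9216 CPM in mutant replicates 1 to 3 and 11048, 11869 and 12600 CPM in control replicates 1 to 3. Mutant replicate 3 was the lowest and control replicate 3 the highest. The means were 10656 ± 1362 CPM in mutant and 11839 ± 777 CPM in control ovaries (SD, n = 3 each), a log2 ratio of −0.15 (exact two-sided permutation p = 0.3, smallest possible 0.1). Without mutant replicate 3 the log2 ratio was −0.06, and without mutant replicate 2 it was −0.24.

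These mRNAs differed widely in level, in the same order in 4 of 6 libraries and with 2 pairs of neighbours exchanged in mutant replicate 3 and 1 pair in control replicate 3. Counts per kilobase of gene (CPM per kb) are used for such comparisons. As for the rRNAs, they describe RNA captured by a poly(A) tail and not amounts of RNA. The 3 complex IV genes stood at the top: mt:CoIII at 2979 CPM per kb in mutant and 3365 in control ovaries, mt:CoI at 2396 in mutant and 2592 in control ovaries, and mt:CoII at 1702 in mutant and 1912 in control ovaries. These 3 held the top places in the same order in all 6 libraries, although the ranges of mt:CoIII and mt:CoI over the libraries overlapped. mt:ATPase6 and mt:Cyt-b followed and were not separated beyond their spread, with mt:ATPase6 the higher in 4 of 6 libraries. Next came mt:ND3, mt:ND4, mt:ND5 and mt:ND1, at 364, 337, 285 and 178 CPM per kb in mutant and 430, 344, 316 and 221 CPM per kb in control ovaries. mt:ND4 was above mt:ND5 in 6 of 6 libraries, by 1.02 to 1.59 times, and mt:ND3 was above mt:ND4 in 5 of 6. The lowest tested mRNAs were mt:ND6, mt:ND2 and mt:ND4L, at 25.9, 13.9 and 7.08 CPM per kb in mutant and 29.2, 15.5 and 7.73 CPM per kb in control ovaries.

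**Figure D2:**
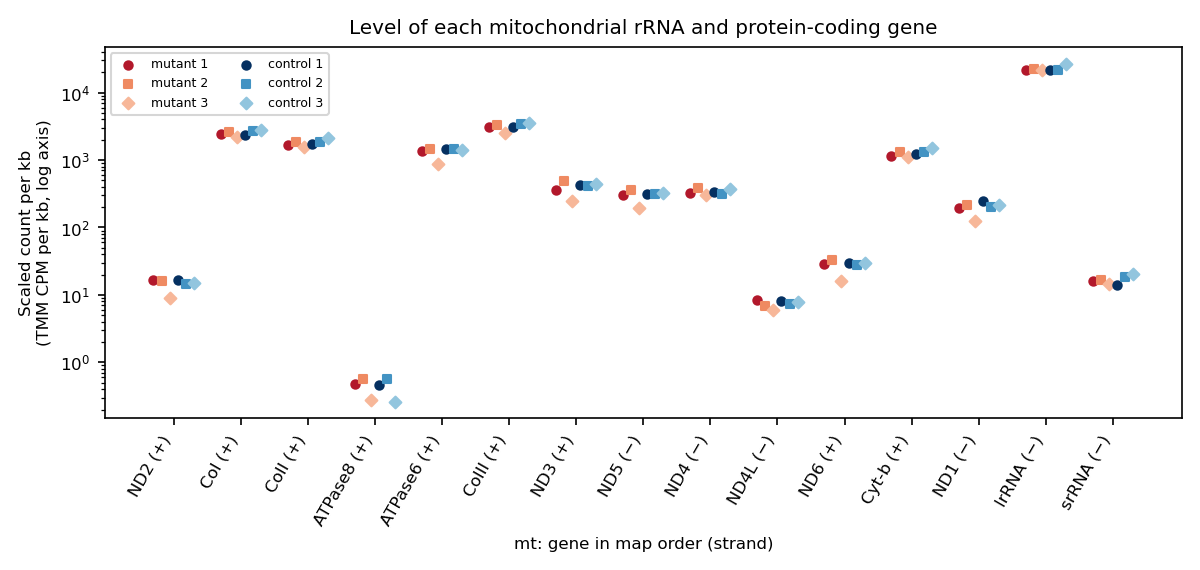
Scaled count per kilobase (log axis) of the 2 rRNA and 13 protein-coding genes in map order, with the strand in brackets; red points are the 3 mutant and blue points the 3 control libraries. mt:lrRNA stands highest and mt:ATPase8 lowest, and the order of the genes is alike in both genotypes.

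Some neighbouring genes on the same strand stood at very different levels, and others were closer. mt:Cyt-b (10498 to 11634, plus strand) starts just after mt:ND6 (9970 to 10494, plus strand), and its count per kilobase was 41.0, 39.8 and 68.6 times that of mt:ND6 in mutant replicates 1 to 3, against 41.4, 46.5 and 50.2 times in control replicates 1 to 3. mt:CoI (1474 to 3009) is the next plus-strand mRNA after mt:ND2 (240 to 1265), and exceeded it by 147, 160 and 241 times in the mutant libraries and by 141, 181 and 182 times in the control libraries. Mutant replicate 3 gave the highest ratio in each of these pairs. mt:ND1 (11720 to 12658, minus strand) and mt:lrRNA lie on the same strand with a leucine tRNA gene between them. mt:lrRNA exceeded mt:ND1 by 112, 102 and 172 times in the mutant libraries and by 87.1, 107 and 124 times in the control libraries. Closer neighbours, per kilobase over all 6 libraries, were mt:CoI at 1.28 to 1.44 times mt:CoII and mt:CoIII at 2.09 to 2.86 times mt:ATPase6. Likewise, mt:ND4 stood at 1.02 to 1.59 times mt:ND5.

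The pairs that are known to stay joined on a common transcript gave the lowest counts of all mRNAs for their shorter member. mt:ATPase8 (3907 to 4068, 162 bases) shares 7 bases with mt:ATPase6 (4062 to 4736), and had 2, 2 and 1 counts in the mutant libraries and 2, 2 and 1 in the control libraries. mt:ATPase6 in the same libraries had 23345, 21399 and 13313 counts in mutants and 26250, 21094 and 22118 in controls. mt:ND4L (9544 to 9834, minus strand) shares 1 base with mt:ND4 (8206 to 9544), and the count per kilobase of mt:ND4 was 38.2 to 55.7 times that of mt:ND4L in mutant libraries and 41.6 to 48.8 times in control libraries. How reads that span both genes of such a pair were counted is not recorded in the labels, so the counts of mt:ATPase8 and mt:ND4L are uncertain as measures of RNA. mt:ATPase6 also shares 1 base with mt:CoIII, and mt:ND2 shares 2 with a tryptophan tRNA gene.

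By complex, no set of mRNAs separated the genotypes. Complex I, the NADH dehydrogenase that feeds electrons into the chain, has 7 mitochondrial subunits, and their summed level was 1292, 1541 and 972 CPM in mutant and 1398, 1336 and 1459 CPM in control replicates 1 to 3. The single complex III gene, mt:Cyt-b, encodes cytochrome b and stood at 1318, 1515 and 1247 CPM in mutant and 1407, 1492 and 1686 CPM in control replicates 1 to 3. Mutant replicate 3 was the lowest of the 6 in both sums. mt:Cyt-b had the smallest adjusted p of all members, 0.269, at a log2 fold change of −0.17 (SE 0.09, 95% interval −0.38 to 0.04, edgeR).

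Complex IV is the cytochrome c oxidase that passes electrons to oxygen, and mt:CoI encodes its catalytic core. mt:CoI stood at 3693, 3996 and 3352 CPM in mutant and at 3644, 4067 and 4234 CPM in control replicates 1 to 3, and the groups overlapped. Its log2 fold change was −0.11 (SE 0.07, 95% interval −0.28 to 0.06, edgeR adjusted p = 0.363), the narrowest interval among the 14. The log2 fold change was −0.17 (SE 0.10) for mt:CoII and −0.18 (SE 0.11) for mt:CoIII. Summed, the 3 complex IV genes stood at 7305, 7884 and 6403 CPM in mutant and at 7254, 8071 and 8512 CPM in control replicates 1 to 3, and the groups overlapped. Within each library the count of mt:CoI per kilobase was 1.39 to 1.43 times that of mt:CoII in mutants and 1.28 to 1.44 times in controls. mt:ATPase6, a subunit of the proton channel of the ATP synthase (complex V), had a log2 fold change of −0.22 (SE 0.20, edgeR adjusted p = 0.554). Without mutant replicate 3 the log2 fold change was −0.02 for mt:ATPase6 and −0.07 for mt:CoIII.

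The mRNAs of mutant replicate 3 were low, and unevenly so from gene to gene. It was the lowest of the 6 libraries for all 12 tested mRNAs. For 6 of them, mt:ND6, mt:ND2, mt:ND5, mt:ND3, mt:ND1 and mt:ATPase6, its level was 0.517 to 0.626 times the mean of mutant replicates 1 and 2, or −0.91 to −0.67 as a difference of log2(CPM + 0.5). For the other 8 tested genes the difference was −0.35 to 0.00, and no gene lay between. These 6 genes were grouped after their values were seen, by a difference of −0.6 or lower, so no test is given. Of all 8110 genes tested, 394 or 4.86% lay as low in mutant replicate 3, and the median over all genes was 0.00.

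The library values show how the 6 genes behaved. mt:ND5, at 6402 to 8124 on the minus strand, stood at 518, 623 and 334 CPM in mutant and at 536, 538 and 559 CPM in control replicates 1 to 3. mt:ND6 stood at 14.9, 17.6 and 8.39 CPM in mutant and at 15.7, 14.8 and 15.5 CPM in control replicates 1 to 3. In both, mutant replicates 1 and 2 lay near the controls, the controls lay within a narrow range, and mutant replicate 3 lay far below all. mt:ND3, mt:ND2 and mt:ND1 stood at 88.5, 9.28 and 118 CPM in mutant replicate 3, against 127 to 171, 16.7 to 16.8 and 180 to 204 CPM in mutant replicates 1 and 2, and 148 to 159, 15.0 to 17.2 and 190 to 230 CPM in controls. mt:ATPase6 stood at 913, 984 and 594 CPM in mutant and at 987, 970 and 942 CPM in control replicates 1 to 3. The log2 ranges of the 6 genes were 0.01 to 0.42 between mutant replicates 1 and 2 and 0.06 to 0.27 over the controls.

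mt:ND4, a complex I gene next to mt:ND5 on the minus strand with only a histidine tRNA gene between them, did not share the low value. It stood at 433, 507 and 412 CPM in mutant and at 447, 427 and 506 CPM in control replicates 1 to 3, a log2 fold change of −0.03 (SE 0.09, edgeR adjusted p = 0.869). The ratio of mt:ND4 to mt:ND5 per kilobase was 1.07, 1.05 and 1.59 in mutant and 1.07, 1.02 and 1.16 in control replicates 1 to 3. mt:lrRNA in mutant replicate 3 matched the mean of mutant replicates 1 and 2. The 6 genes comprise 4 on the plus and 2 on the minus strand with lengths of 354 to 1723 bases, and the other 8 comprise 4 on each strand with lengths of 291 to 1536 bases. Whether strand or length plays a part was not tested.

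**Figure D3:**
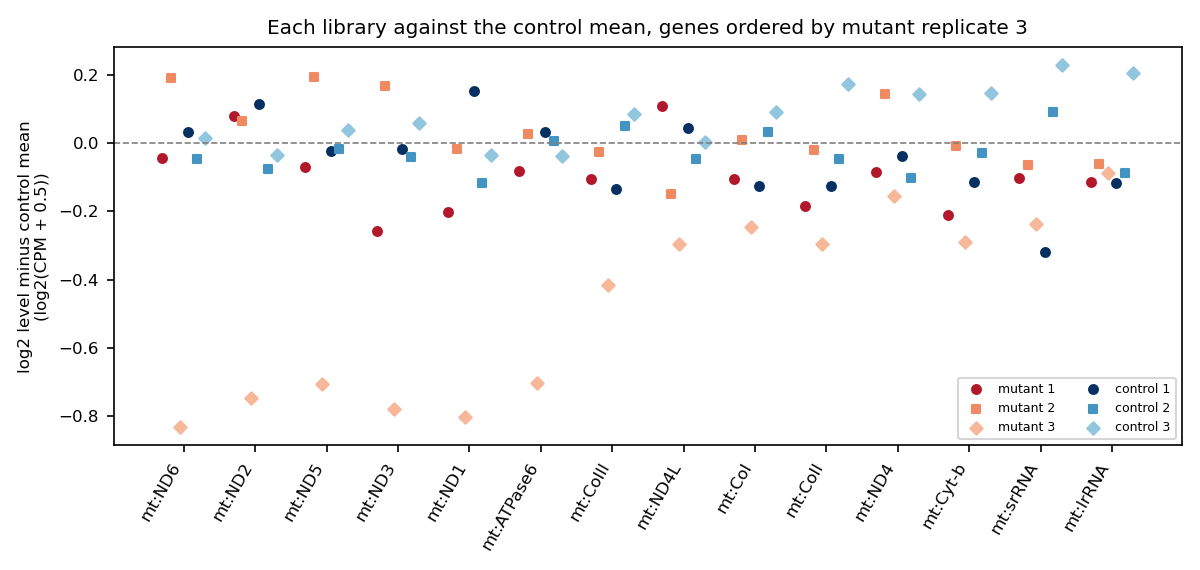
Level of each tested mitochondrial gene in each library minus the control mean, as log2(CPM + 0.5); red points are the 3 mutant and blue points the 3 control libraries, and genes are ordered by how low mutant replicate 3 lay against mutant replicates 1 and 2. Mutant replicate 3 lies far below the rest for mt:ND6, mt:ND2, mt:ND5, mt:ND3, mt:ND1 and mt:ATPase6, and near the others for mt:lrRNA.

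The share of each mRNA within the pool of mitochondrial mRNA counts does not depend on the scaling of the library. mt:CoI made up 34.1%, 33.5% and 36.4% of that pool in mutant replicates 1 to 3, against 33.0%, 34.3% and 33.6% in control replicates 1 to 3. mt:ATPase6 made up 8.43%, 8.25% and 6.45% in the mutant and 8.94%, 8.17% and 7.47% in the control libraries. mt:ND5 made up 4.79%, 5.22% and 3.62% in the mutant and 4.85%, 4.54% and 4.44% in the control libraries. In mutant replicate 3 the pool thus held more mt:CoI and less mt:ATPase6 and mt:ND5 than in any other library.

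The summed markers of muscle, follicle cells and hemocytes ran low in mutant replicate 3 against mutant replicates 1 and 2, while those of fat body did not. The 9 muscle markers, genes of the sheath that wraps the ovary, summed to 234, 206 and 121 CPM in mutant and to 108, 196 and 188 CPM in control replicates 1 to 3. Control replicate 1 had the lowest muscle sum of all. The 5 follicle cell markers summed to 355, 359 and 231 CPM in mutant and to 264, 269 and 248 CPM in control replicates 1 to 3, lowest in mutant replicate 3. In that sum, mutant replicates 1 and 2 lay above all controls. The 5 hemocyte markers summed to 6.29 to 20.2 CPM in mutants and 4.14 to 9.89 CPM in controls, nearly all of it from Ppn. Hml, NimC1, He and eater stood at 0.506 CPM or less in every library, too low for the fit. The 5 fat body markers summed to 22.6, 11.8 and 13.8 CPM in mutant and to 27.8, 41.7 and 20.3 CPM in control replicates 1 to 3. No marker on the muscle, follicle cell, hemocyte or fat body list was called, of 9, 5, 1 and 1 tested. Over all 8110 genes tested, 14.5% were called. Standard errors of these markers reached 0.57 (Ppn), so the lists cannot show that the cell types were alike in both genotypes. Of the 5 germline markers, grk rose by 0.27 on the log2 scale (edgeR adjusted p = 0.0362), and vas and bam fell by 0.16 (0.0292) and 0.27 (0.0356). The shares over all genes tested were 8.31% higher and 6.2% lower. The call of grk was lost in DESeq2 (adjusted p = 0.0676) and without replicate 1 or 2 of the mutant or replicate 1 or 3 of the control, at up to 0.151 in edgeR. The calls of vas and bam were lost when any library other than mutant replicate 3 was left out, at up to 0.137 for vas and 0.106 for bam. The single testis marker tested, betaTub85D, had a log2 fold change of 1.40 (adjusted p = 0.0284, edgeR) at a level under 1 CPM in every library. Its call was lost in DESeq2 (adjusted p = 0.131) and when any library other than mutant replicate 3 was left out, at up to 0.107. The part of these cell types in the low mitochondrial mRNAs was not tested.

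**Figure D4:**
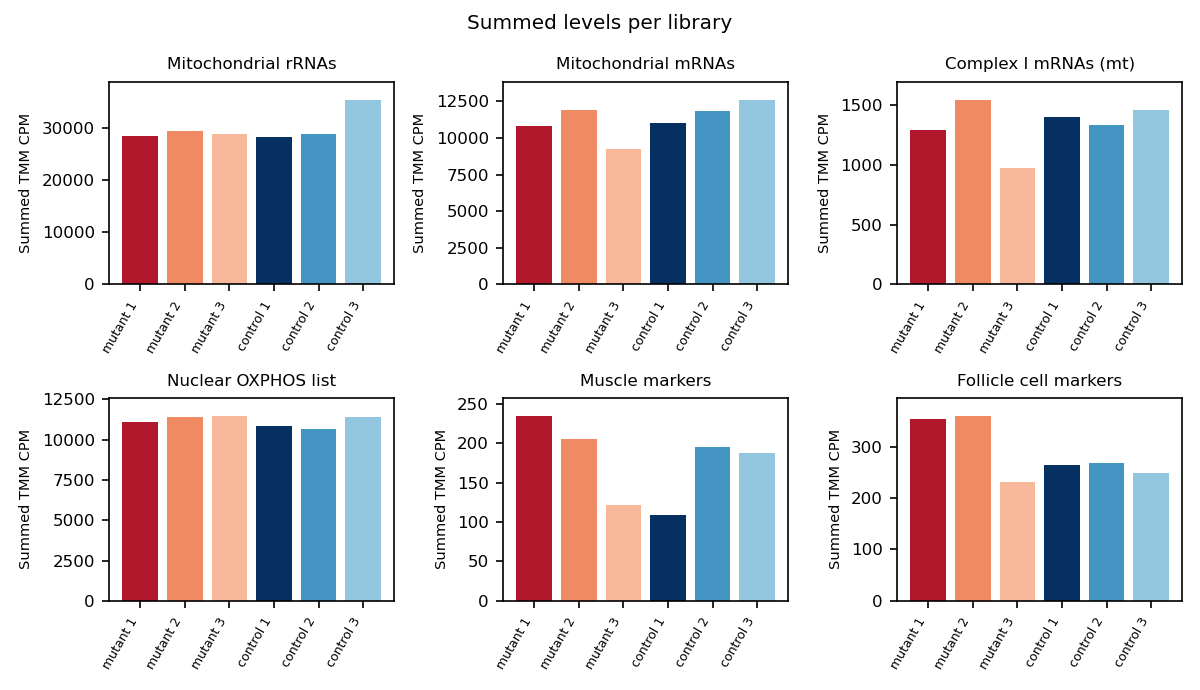
Summed levels in TMM-scaled CPM in each library, with the 3 mutant libraries in red to the left of the 3 control libraries in blue. Mutant replicate 3 is the lowest for mitochondrial mRNAs and for the complex I mRNAs among them, while rRNAs are highest in control replicate 3 and the nuclear oxidative phosphorylation list varies little.

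The 22 tRNA genes, 61 to 73 bases long, gave almost no counts, as 18 of them had 0 in all 6 libraries. The counts summed to 0, 0 and 5 in mutant replicates 1 to 3 and to 1, 1 and 1 in control replicates 1 to 3. The 5 counts of mutant replicate 3 came from the tyrosine tRNA gene mt:tRNA:Tyr-GTA with 3, and from mt:tRNA:Ile-GAT and mt:tRNA:Cys-GCA with 1 each. The ratio of the scaled group sums was 1.72, with an exact (Clopper-Pearson) 95% interval of 0.334 to 11.1 that covers counting error only, and the exact two-sided permutation p was 1.0. A count of 0 in a library allows a level of up to 0.113 to 0.139 CPM, depending on the library. Differences of tRNA were therefore not detectable at this depth. Mature tRNAs are shorter than the fragments usually sequenced and carry no poly(A) tail, so such counts say nothing of the amount of tRNA.

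Most nuclear genes that serve the mitochondrial genome were near their control levels. Of 18 genes for mitochondrial transcription, RNA processing and decay, 16 were tested, of which 2 rose, 1 fell and 13 missed the threshold, at a median log2 fold change of 0.05 (over all genes tested, 8.31% were called higher and 6.2% lower). RNaseZ, which encodes the nuclease that cuts the 3′ ends of tRNA precursors, rose to 42.1 ± 3.70 CPM in mutant ovaries, against 32.8 ± 1.31 CPM in control ovaries (SD, n = 3 each; log2 fold change 0.36, SE 0.07, edgeR adjusted p = 0.00874). Suv3, the RNA helicase of the mitochondrial decay machinery, rose by 0.26 (SE 0.06, adjusted p = 0.0147, edgeR). mTTF, a factor that ends mitochondrial transcription at defined sites, stood at 21.1 ± 1.32 CPM in mutant and 25.4 ± 0.539 CPM in control ovaries (SD, n = 3 each) and fell by 0.26 on the log2 scale (SE 0.07, edgeR adjusted p = 0.0278).

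The calls of Suv3 and mTTF were lost in some fits with 1 library left out, but their fold changes moved little. With each library left out in turn, the log2 fold changes were 0.22 to 0.28 for Suv3 and −0.31 to −0.23 for mTTF. The call of Suv3 ended without mutant replicate 1 (adjusted p = 0.0526) and without control replicate 1 (0.0728, edgeR). That of mTTF ended when any library other than mutant replicate 3 was left out, at up to 0.102. RNaseZ stayed past the threshold without each library. MTPAP, the mitochondrial poly(A) polymerase gene, had a log2 fold change of 0.12 (SE 0.05, edgeR adjusted p = 0.109). TFAM, whose protein packages mitochondrial DNA, and PolrMT, the gene of the mitochondrial RNA polymerase, are named for their roles, after their values were seen. They stood at 0.05 (SE 0.05) and 0.04 (SE 0.08) on the log2 scale, both short of the threshold. mtTFB1 and SLIRP1 had 0 counts in every library, and because each overlaps a gene of its own strand their values are uncertain.

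Of 13 genes for replication and upkeep of mitochondrial DNA and of the organelle, 12 were tested. Among these, 1 was higher, 2 lower and 9 not past the threshold, with a median of 0.01. The shares over all genes tested were 8.31% higher and 6.2% lower. DNAlig3, a DNA ligase gene whose vertebrate counterpart seals mitochondrial DNA, stood at 27.0, 26.0 and 23.6 CPM in mutant and at 42.6, 40.5 and 42.4 CPM in control replicates 1 to 3. The groups did not overlap, and the log2 fold change was −0.71 (SE 0.06, edgeR adjusted p = 1.04e-04). DNAlig3 lies at 12399011 to 12401839 on chromosome arm 3R in the dm6 build, 982869 bases beyond the end of Ipo9, so linked sequence differences between the 2 chromosomes cannot be told apart from the mutation there. The same limit can hold for Suv3, bam and betaTub85D, which also lie on arm 3R. Differences of genetic background on other chromosomes were not tested. PolG1, the catalytic subunit gene of the mitochondrial DNA polymerase, on arm 2L, fell to 55.1 ± 0.987 CPM in mutant ovaries, against 66.1 ± 1.93 CPM in control ovaries (SD, n = 3 each; log2 fold change −0.26, SE 0.04, edgeR adjusted p = 0.00459). Drp1, which encodes the dynamin that divides mitochondria, rose by 0.15 (SE 0.04, adjusted p = 0.0244, edgeR), but leaving out replicate 1 or 2 of either genotype ended the call, at an adjusted p of up to 0.0985. PolG2, the accessory subunit gene of that polymerase, had 0 counts in every library and also overlaps a gene of its own strand. DNAlig3 and PolG1 stayed past the threshold without each library. clu, a gene needed for the placing of mitochondria in the cell, had a log2 fold change of 0.11 (SE 0.04, edgeR adjusted p = 0.125).

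Of 10 mitochondrial translation factor genes, 9 were matched and tested. Among these, 1 was higher, 0 lower and 8 not past the threshold, with a median of 0.01 (over all genes tested, 8.31% higher and 6.2% lower). mEFTu2, an elongation factor gene, rose by 0.21 (SE 0.04, adjusted p = 0.0119, edgeR), a call that ended without control replicate 1 (0.0524). The log2 fold change was 0.26 (SE 0.08) for mRRF1, a ribosome recycling factor gene, 0.14 (SE 0.04) for mEFTu1 and 0.08 (SE 0.04) for mEFTs, both elongation factor genes, all short of the threshold. mEFTu1 overlaps a gene of its own strand, so its value is uncertain. The nuclear oxidative phosphorylation genes had 65 of 91 genes tested. Of these, 2 were higher, ND-B14 of complex I and SdhA of complex II, and 0 lower, at a median of 0.04. Over all genes tested, 8.31% were called higher and 6.2% lower. The call of SdhA ended when any library other than mutant replicate 3 was left out, at an adjusted p of up to 0.0940 (edgeR). Their summed level was 11118, 11407 and 11448 CPM in mutant and 10825, 10654 and 11389 CPM in control replicates 1 to 3, and mutant replicate 3 was not low.

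**Figure D5:**
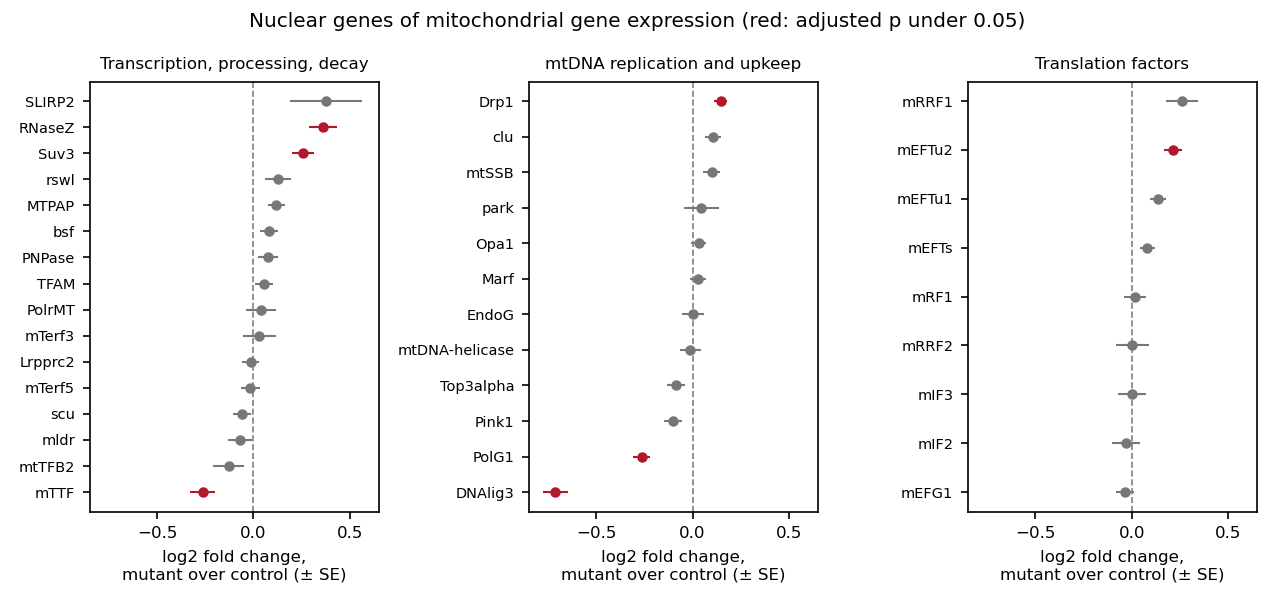
Log2 fold change, mutant over control, with its standard error, of the tested nuclear genes for mitochondrial transcription and RNA processing, DNA upkeep, and translation; red marks an adjusted p under 0.05 in edgeR. The largest difference is that of DNAlig3 at −0.71, and RNaseZ, marked in red, lies at 0.36.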

How the data were processed

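The authors deposited unnormalized read counts, 1 table per library, for the same 17559 genes. Per the labels' protocols, ovary RNA was extracted with TRIzol and made into directional NEBNext Ultra II libraries after poly(A) purification. The submitters' processing notes name TopHat2, HTSeq and DESeq2, and the builds dm6 and BDGP6. Versions and the strand setting of the counting were not given in the sources used here.

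Symbols came from the BDGP6 annotation through the gene ID for 17253 genes, and through position for 213 more (reciprocal overlap of at least 90%). Mitochondrial coordinates are those of the count tables, counted from 1. They match the start in that annotation for 19 of the 37 members and differ by up to 7 bases for the rest. Whether reads could also fit nuclear copies of mitochondrial DNA was not tested.

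The fit over all genes used edgeR 4.0.16 (R 4.3.3). Genes of low count were removed with filterByExpr (minimum count 10), and the rest were scaled with TMM factors and tested with a robust quasi-likelihood test of mutant against control. Benjamini-Hochberg adjustment ran over 8110 genes, and genes were called at an adjusted p under 0.05. The standard error is the log2 fold change divided by the root of the F statistic. CPM is the count per 1000000 counted reads after TMM scaling. Differences of single libraries use log2(CPM + 0.5). Class sums were compared over libraries with an exact permutation test (scipy). The alternatives were DESeq2 1.42.0, limma-voom (limma 3.58.1), other scalings, among them scaling to nuclear counts, other filters, a replicate block, leaving out genes that overlap another on the same strand, and leaving out each library. All members may be named; of the nuclear lists, the called genes and the 4 with the smallest p are. The members and lists were chosen with earlier results of these data known. In replicate pairs of 1 group the counts differed by 6.16 to 15.8 times the counting variance per gene, so no library was a copy of another.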

Additional observations from a re-analysis of the deposited data

How the results depend on the processing

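The count of mitochondrial-genome genes called was 0 in the main fit and in all 14 alternatives, which gave 196 fitted values for the 14 genes: 190 below 0 and 6 above, from −0.49 to 0.08, with a smallest adjusted p of 0.0781. The 6 above 0 came from leaving out mutant replicate 3 or control replicate 3. Among all genes, 1177 were called, and 566 to 1475 with 1 library left out. The lowest counts, 566, 739, 775 and 778, came without control replicate 1, mutant replicate 2, control replicate 3 and mutant replicate 1, and 728 with a replicate block. The labels do not say whether replicate numbers mark shared batches. Same-numbered libraries deviated from their group means with correlations of −0.25, −0.224 and −0.124, and none correlated best with its own number. With 3 libraries per group, these correlations cannot decide whether same-numbered libraries were prepared together. The replicate block ended the calls of mTTF, Drp1, SdhA, vas, grk, bam and betaTub85D, at adjusted p of 0.0539 to 0.0833 (edgeR). With that block, the log2 ratio was −0.16 for summed mRNAs and −0.09 for summed rRNAs. Leaving out each library in turn gave −0.24 to −0.06 for mRNAs, −0.15 to 0.01 for rRNAs and 0.75 to 1.41 for tRNAs. Without mutant replicate 3, or with the block, tRNA counts of 0 gave no value. The scalings moved each sum by less than the spread between libraries.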
